A study of Mus musculus with 6 samples.

Results

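Cilium, axoneme and dynein genes were examined in the lateral ventricular choroid plexus of embryonic and adult mice. The genes were taken from 2 deposited expression tables joined on the transcript cluster, which is the set of exon probe sets that together measure a gene on the array. A cluster was included where its cellular component ontology text contained cilium, axoneme or dynein, or where a gene symbol began with Dnah, Dnahc, Dnaic, Dnali, Ift, Bbs or Tekt, and clusters annotated to the cell cycle were left out. This gave 28 clusters of the 3956 in the joined table, and they represent 27 genes because Dnahc1 has 2 clusters. The cell cycle annotation removed 2 further clusters, Pkd1 and Pkd2. The gene-level table held 16 of the 28 clusters, and the list of clusters with an altered splicing index held 25.

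Cilia are thin projections of the cell surface built on a core of microtubule doublets, the axoneme, which grows from a basal body. In motile cilia the doublets carry rows of dynein arms, motor complexes with very large heavy chains, and radial spokes and a central pair of microtubules control the beat. Primary cilia lack these motors and serve as signalling antennae, while both kinds are built and maintained by intraflagellar transport (IFT), the movement of protein trains along the axoneme. Choroid plexus epithelial cells carry tufts of cilia on the surface that faces the cerebrospinal fluid, and the neighbouring ependymal cells carry beating cilia.

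Tissue came from Swiss Webster mice with no genetic modification or treatment named in the labels. By the sample labels, the E15 group held embryos of mixed sex with 30 animals in each pool, and the adult group held females with 10 animals in each pool. The supplementary description gives other pool sizes and calls the embryos unsexed. Each age had 3 pools, and each pool was hybridised to its own Affymetrix mouse exon array. Age and sex changed together and cannot be told apart. The plexus was taken whole, with its epithelium, vessels and stroma, so that fewer cells of a type and less RNA per cell cannot be told apart either.

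The authors merged the 3 arrays of an age into 1 log2 value for each cluster, centred near 0. The values therefore hold the difference between the ages and neither an absolute level nor a spread between pools, and no error or test accompanies them. Every difference given is adult minus E15 on the log2 scale, and a fold is 2 raised to its size. Entry to the gene-level table was limited to clusters that had passed the authors' corrected test and a fold change of 2, so that each of its entries differed at least 2-fold by selection. The splicing index list was not selected on fold change. Listed genes without a matching entry in these tables are not described.

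At least 2-fold higher values were found at E15 in 10 of the 28 clusters and in adult in 6, while 12 differed by less. The joined table held 24.4% of clusters at least 2-fold higher at E15 and 22.9% at least 2-fold higher in adult, against 35.7% and 21.4% of the cilium, axoneme and dynein clusters. Their median difference was -0.40, beside -0.16 over the whole joined table. Of the 25 clusters in the splicing index list, 9 were at least 2-fold higher at E15 and 4 in adult. These counts are 36% and 16%, beside 20.5% and 17.6% of all 3369 clusters of that list. Re-centring each age on its median in the joined table added 0.15 to every difference, made the members' median -0.25 and left 7 of the 28 clusters (25%) higher at E15 and 6 in adult, beside 19.4% and 25.7% of the joined data. Before re-centring, the share higher in adult was thus close to that of the background in both tables, and the share higher at E15 was above it. After re-centring the share higher at E15 stood nearer to the background, at 25% beside 19.4%. With 1 cluster per gene, 9 of 27 clusters were higher at E15 before re-centring. Of the 10 clusters higher at E15, 7 encode dyneins, axonemal wall proteins or a tubulin-modifying enzyme, and of the 6 higher in adult, 3 encode proteins of the hair bundle.

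**Figure D1:**
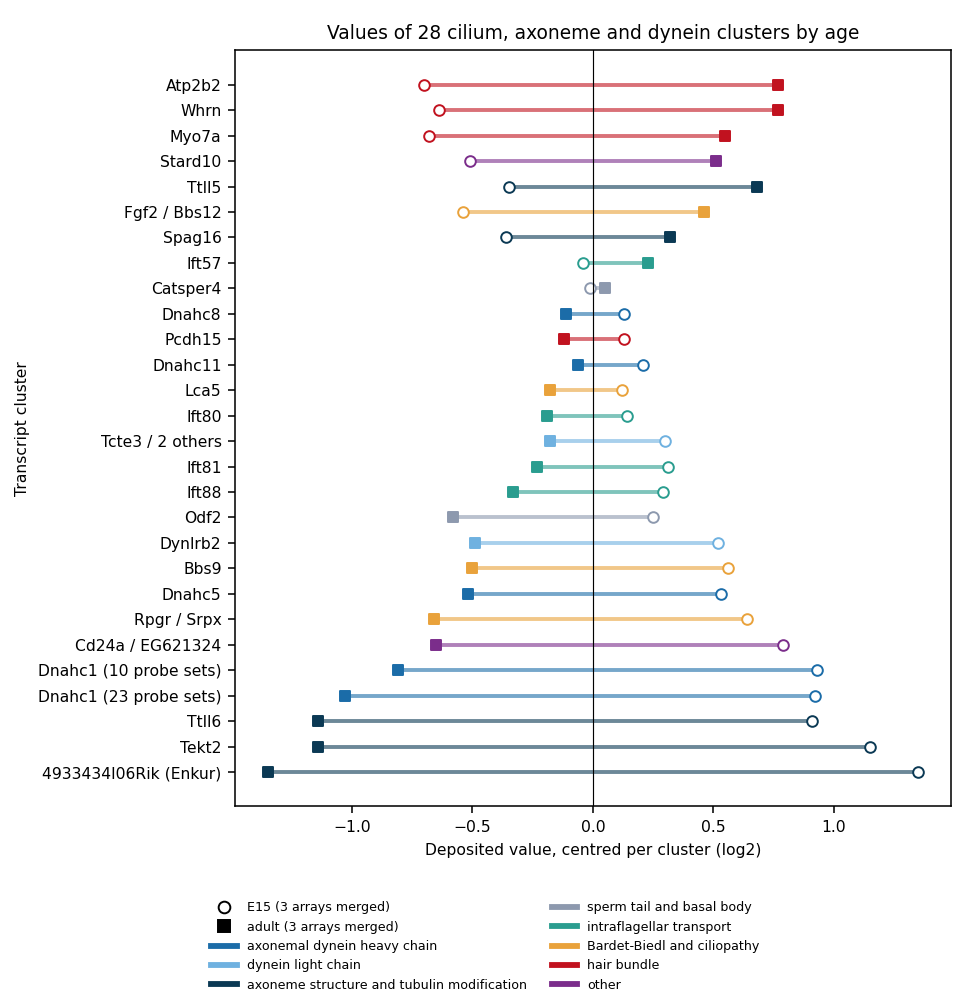
Deposited log2 values of the 28 clusters, centred for each cluster, with open circles for E15 and filled squares for adult; each symbol is 1 value merged by the authors from 3 arrays, so no error bars can be drawn, and colours give the role of the gene. Enkur, Tekt2, Ttll6 and both Dnahc1 clusters have the widest gaps with E15 on the right, and Atp2b2, Whrn and Myo7a have the widest gaps with adult on the right.

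The annotation itself was checked against what each protein does. The text search for cilium also finds stereocilium, the name for the actin-filled protrusions of sensory hair cells, which are no true cilia. Stereocilium was the only matching term for Myo7a and Pcdh15, and Whrn carried both cilium and stereocilium. Symbol starts alone brought in 5 clusters, namely Ift80, Ift81, Bbs9, Tekt2 and the cluster shared by Fgf2 and Bbs12. Electronically inferred annotation alone brought in 8. Atp2b2 carried cilium alone. Because Atp2b2, Whrn, Myo7a and Pcdh15 are all known from the hair bundle, these 4 are described separately.

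Axonemal dynein heavy chains, the motor subunits that bend the axoneme, were represented by 5 clusters. Of these, 3 (60%) were at least 2-fold higher at E15 and 0 in adult, beside 24.4% and 22.9% of the joined data. After re-centring 2 (40%), both of Dnahc1, were at least 2-fold higher at E15, beside 19.4% of the joined data. Dnahc1 (Dnah1 in RefSeq) encodes a heavy chain of the inner dynein arms. Its cluster of 23 probe sets had a value of 0.92 at E15 and -1.03 in adult, a difference of -1.94 and a fold of 3.84. Its other cluster, of 10 probe sets, had 0.93 at E15 and -0.81 in adult, a difference of -1.74 and a fold of 3.35. Both clusters of the gene were higher at E15 by a similar amount, although as readings of the same gene on the same arrays they are not replicates of each other.

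Dnahc5 (Dnah5), a heavy chain of the outer dynein arms, had a value of 0.53 at E15 and -0.52 in adult, a difference of -1.06 and a fold of 2.08, which re-centring reduced to 1.87. Dnahc11 (Dnah11), another outer arm heavy chain, had 0.21 at E15 and -0.06 in adult, a difference of -0.27. Dnahc8 (Dnah8), best known from the sperm tail, had 0.13 at E15 and -0.11 in adult, a difference of -0.24. The last 2 heavy chains were listed for their splicing index alone and stood well under a fold of 2, and all 5 clusters lay below 0. The heavy chain list holds 17 genes, and its other genes had no entry in the tables used here.

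Dynein light chains contributed 2 clusters. Dynlrb2, a roadblock-type light chain found in motile ciliated cells, had a value of 0.52 at E15 and -0.49 in adult, a difference of -1.01 and a fold of 2.02. This is the smallest difference among the 10 clusters higher at E15, just inside the threshold, and its re-centred fold was 1.82. The cluster of Tcte3, a light chain of the Tctex type that shares its probe sets with 2 other gene symbols, had 0.30 at E15 and -0.18 in adult, a difference of -0.48.

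The widest differences toward E15 belonged to proteins of the axonemal wall and to an enzyme that modifies it. The cluster 4933434I06Rik, named Enkur in RefSeq, encodes enkurin, a protein of motile cilia and the sperm tail. It had a value of 1.35 at E15 and -1.35 in adult, a difference of -2.70 and a fold of 6.48, the largest of all 28 clusters. Tekt2, a filament-forming tektin of the microtubule doublets, had 1.15 at E15 and -1.14 in adult, a difference of -2.29 and a fold of 4.89. Ttll6, an enzyme that adds glutamate chains to tubulin in cilia, had 0.91 at E15 and -1.14 in adult, a difference of -2.05 and a fold of 4.13.

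Not every gene of this kind was higher at E15. Ttll5, a second tubulin polyglutamylase, had a value of -0.35 at E15 and 0.68 in adult, a difference of 1.02 and a fold of 2.03. Spag16, a protein of the central pair of microtubules, had -0.36 at E15 and 0.32 in adult, a difference of 0.68 and a fold of 1.61. The enzymes Ttll6 and Ttll5 thus stood at opposite sides of the table. Among the 5 clusters of axoneme structure and tubulin modification, 3 were at least 2-fold higher at E15 and 1 in adult, with a median of -2.05. These counts are 60% and 20%, beside 24.4% and 22.9% of the joined data.

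The promoters of these genes were read from the RefSeq promoter table (build GRCm38.p6), which gives 250 bases before and 50 after each transcription start. RFX factors, which act with the forkhead factor Foxj1 in ciliated cells, bind the X-box, a pair of inverted copies of a short element. The sequences that follow are stretches before the start of 2 genes higher at E15, in which capitals mark GTTGC and GCAAC separated by 3 bases.

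Tekt2 (chr4:126325689-126325737, minus strand): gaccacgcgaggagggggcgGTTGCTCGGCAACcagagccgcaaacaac

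Dynlrb2 (chr8:116504944-116504996, plus strand): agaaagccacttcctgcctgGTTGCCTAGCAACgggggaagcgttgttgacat

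The paired element lay 29 to 17 bases before the first of the 3 starts listed for Tekt2 and 51 to 39 bases before the start of Dynlrb2. Motifs were searched on both strands in the 21 genes whose clusters carry a single symbol and have a promoter in the table. The pair GTTGCNNNGCAAC or GTTGCNNNNGCAAC was present in 2 of the 7 genes higher at E15, in 0 of 5 higher in adult and in 0 of 9 under 2-fold. It was held by 0.444% of all 27025 genes with a promoter listed and by 0.55% of the 2910 such genes of the joined data. The paired form was chosen after the promoter of Tekt2 had been read, so the count for Tekt2 supports nothing.

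The single RFX element GTTGCCA was present in 2 of the 21 genes (9.52%), beside 5.02% of all promoters, and in 0 of the 7 higher at E15. In the 250 bases before the start alone it was present in 0 of the 21, beside 4.19% of all promoters, so the first share rests on bases after the start. The forkhead core TGTTTAC was present in 1 of 21 (4.76%), Stard10, beside 4.05% of all promoters. A match is a description of the letters in the window, and no binding was measured.

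Sperm tail and basal body proteins differed less. Odf2, which builds the appendages of the basal body and the outer dense fibres of the sperm tail, had a value of 0.25 at E15 and -0.58 in adult, a difference of -0.83 and a fold of 1.78. It stood just outside the threshold. Catsper4, a subunit of the calcium channel of sperm, had -0.01 at E15 and 0.05 in adult, a difference of 0.06.

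The 4 IFT genes, all subunits of the IFT-B complex that carries cargo toward the ciliary tip, stood under 2-fold. Ift88 had a value of 0.29 at E15 and -0.33 in adult, a difference of -0.63 and a fold of 1.54. Ift81, which helps to carry tubulin, had 0.31 at E15 and -0.23 in adult, a difference of -0.54. Ift80 had 0.14 at E15 and -0.19 in adult, a difference of -0.33. These 3 lay toward E15, while Ift57 lay the other way with -0.04 at E15, 0.23 in adult and a difference of 0.27. All 4 entered through the splicing index list, and their median difference was -0.43.

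Genes of the BBSome, the coat that moves membrane proteins in and out of cilia, and of inherited ciliary disease gave 4 clusters with values on both sides. Bbs9, a BBSome subunit, had a value of 0.56 at E15 and -0.50 in adult, a difference of -1.06 and a fold of 2.08, which re-centring reduced to 1.88. The cluster of Rpgr, a regulator at the ciliary base mutated in retinal degeneration, had 0.64 at E15 and -0.66 in adult, a difference of -1.30 and a fold of 2.46. That cluster also carries the symbol Srpx, and the values cannot be assigned to either gene. Lca5, which encodes lebercilin, had 0.12 at E15 and -0.18 in adult, a difference of -0.30. The cluster shared by Fgf2, a growth factor, and Bbs12, a chaperonin-like protein that helps to assemble the BBSome, had -0.54 at E15 and 0.46 in adult, a difference of 1.00 and a fold of 2.01. It was the cluster nearest to the threshold of those higher in adult.

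Hair bundle genes had the opposite direction. Atp2b2, a plasma membrane calcium pump known from hair cells and neurons, had a value of -0.70 at E15 and 0.77 in adult, a difference of 1.47 and a fold of 2.77. Whrn, the scaffold protein whirlin of stereocilia and of the photoreceptor connecting cilium, had -0.64 at E15 and 0.77 in adult, a difference of 1.40 and a fold of 2.64. Myo7a, an unconventional myosin that moves along actin, had -0.68 at E15 and 0.55 in adult, a difference of 1.24 and a fold of 2.35. These were the 3 largest differences toward adult among the 28 clusters. Pcdh15, the protocadherin of the tip link between stereocilia, had 0.13 at E15 and -0.12 in adult, a difference of -0.25, and so did not share their direction.

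The remaining members belong to neither machinery. Cd24a, a surface glycoprotein of neural precursors and ependymal cells that shares its cluster with EG621324, had a value of 0.79 at E15 and -0.65 in adult, a difference of -1.45 and a fold of 2.73. Stard10, a lipid transfer protein, had -0.51 at E15 and 0.51 in adult, a difference of 1.02 and a fold of 2.02.

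The wider machinery of cilia was followed in lists of genes that do not depend on the ontology text. In 5 lists of the motile axoneme, with 86 genes in all, 22 clusters had an entry, and 14 of them (63.6%) were at least 2-fold higher at E15 and 0 in adult, beside 24.4% and 22.9% of the joined data. Their median difference was -1.05, beside the -0.16 of the joined table. Clusters that the ontology and symbol rule had not found made up 14 of the 22, and 9 of these 14 were at least 2-fold higher at E15, with a median of -1.04. With re-centred values 9 of the 22 (40.9%) were at least 2-fold higher at E15, beside 19.4% of the joined data. Of the 14 that the rule had not found, 5 (35.7%) were then at least 2-fold higher at E15. The 5 lists were combined after their values had been seen, so these counts are a description. Spag16 was the 1 cluster of the 22 above 0.

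Assembly and docking factors, which fold dynein arms in the cytoplasm and attach them to the doublets, had 5 clusters. At E15 4 of them (80%) were at least 2-fold higher, beside 24.4% of the joined data. After re-centring only Ccdc40 (20%) was, beside 19.4%. Ccdc40, a protein of the ruler that spaces dynein arms and radial spokes along the axoneme, had a value of 1.22 at E15 and -1.10 in adult, a difference of -2.31 and a fold of 4.97. Zmynd10, an assembly factor, had a difference of -1.10. C330001K17Rik (Ccdc151), a docking protein, had -1.05, and Lrrc50 (Dnaaf1), another assembly factor, had -1.01. Dyx1c1 (Dnaaf4) lay on the same side with a difference of -0.50. Wdr63, an intermediate chain of the inner arms, had a difference of -0.99 and was the single entry among intermediate and light chains.

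Central pair, radial spoke and nexin link genes had 8 clusters, of which 4 (50%) were at least 2-fold higher at E15, or 3 (37.5%) after re-centring. The joined data had 24.4% and, after re-centring, 19.4%. Spag17 of the central pair had a difference of -1.37, Hydin of the central pair had -1.03, and Stk36, a kinase needed for central pair assembly, had -1.18. Tcte1, a nexin link protein, had -1.31. Iqcg, Lrrc48 (Drc3) and Ccdc65, further proteins of the nexin link, had -0.90, -0.64 and -0.62, on the same side and under 2-fold. Tppp3, a microtubule-bundling protein counted with the tektins, had 1.05 at E15 and -1.06 in adult, a difference of -2.11 and a fold of 4.30.

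**Figure D2:**
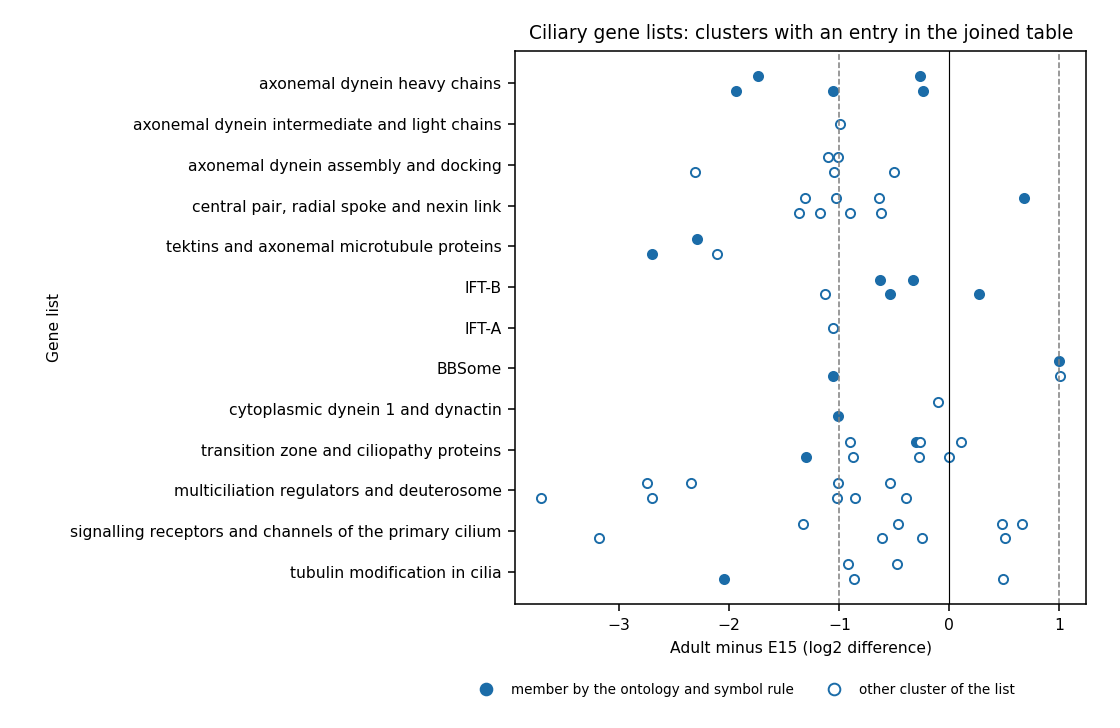
Adult minus E15 difference on the log2 scale for every cluster with an entry in the ciliary gene lists, 1 list per row, filled where the cluster was also chosen by the ontology and symbol rule; dashed lines mark a fold of 2 in each direction. Clusters of the 5 axonemal lists at the top lie below 0 except Spag16 at 0.68, whereas clusters of the IFT, BBSome and transition zone lists spread from -1.30 to 1.01.

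Regulators of multiciliation, the program by which a cell makes many basal bodies at a time, had 9 clusters. Of these, 6 (66.7%) were at least 2-fold higher at E15 and 0 in adult, beside 24.4% and 22.9% of the joined data. After re-centring 4 (44.4%) were at least 2-fold higher at E15, beside 19.4% of the joined data. Ccdc67 (Deup1), the scaffold of the deuterosome on which these basal bodies form, had a value of 1.79 at E15 and -1.92 in adult, a difference of -3.71 and a fold of 13.1. This was the largest difference in any ciliary list. Foxj1, the forkhead regulator of motile ciliogenesis, had 0.50 at E15 and -0.53 in adult, a difference of -1.02 and a fold of 2.03. Gm606 (Gmnc), a coiled-coil protein at the head of the program, had 0.50 at E15 and -0.50 in adult, a difference of -1.01 and a fold of 2.01. Foxj1 and Gmnc were thus just inside the threshold, well short of Deup1, and with re-centred differences of -0.87 and -0.86 they fell outside it.

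Further entries of this list also act in dividing cells. Stil and Plk4, which start centriole duplication, had differences of -2.75 and -2.35, and the transcription factor Myb had -2.70. Sass6, which forms the cartwheel of a new centriole, had -0.86. Besides Deup1, only Stil, Plk4 and Myb of this list stayed at least 2-fold higher at E15 after re-centring. In the list of cycling cell markers all 10 clusters were at least 2-fold higher at E15, with a median of -3.20, and the part of cell division in the values of Stil, Plk4, Myb and Sass6 was not tested. The transcription factors Rfx4 and Rfx1 had -0.54 and -0.39.

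Stretches before the start of 2 listed genes held the RFX letters, in capitals, and are shown because Deup1 had the largest difference and Hydin held the pair at the wider spacing of 4 bases. In Deup1 the capitals are the single element GTTGCCA read on the other strand, and in Hydin the same single element lies within the pair. No share of promoters was counted for the list that holds Deup1, so its match has no share beside it. Of that list only Deup1 and Foxj1 were looked up, and no match before the start was listed for Foxj1.

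Ccdc67 (chr9:15627900-15627946, minus strand): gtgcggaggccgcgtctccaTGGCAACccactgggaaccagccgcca

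Hydin (chr8:110266936-110266976, plus strand): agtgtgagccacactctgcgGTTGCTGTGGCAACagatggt

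In the motile axoneme lists, combined after their values had been seen, 4 of 18 genes with a promoter (22.2%) held the single element. This was in the whole window, beside 5.02% of all promoters. Of the 10 such genes higher at E15, 2 (20%) held the single element, a share near that of all 18. The pair was held by Hydin and by Tekt2, whose promoter had prompted the search for it. Before the start alone the single element was found in 2 of 18 (11.1%) against 4.19% of all promoters. The forkhead core was found in 0 of 18 in the whole window, beside 4.05% of all promoters.

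The transport, BBSome and transition zone lists together had 17 clusters, with 4 at least 2-fold higher at E15 (23.5%, beside 24.4% of the joined data) and 2 in adult, and a median of -0.33. After re-centring 1 was higher at E15, the cluster of Rpgr, and 2 in adult, so that the balance turned. Of the genes not yet described, Rabl4 (Ift27), a small GTPase of the IFT-B complex, had a difference of -1.13, and 1700019E19Rik (Ift43) of the IFT-A complex had -1.06. Mkks, a chaperonin-like protein that acts with Bbs12, had -0.39 at E15 and 0.62 in adult, a difference of 1.01 and a fold of 2.02. The value of the cluster shared by Fgf2 and Bbs12 cannot be assigned to either gene. The transition zone, the gate at the ciliary base, had 8 clusters. Among them were the membrane protein 2810441K11Rik (Tmem216) at -0.88, its partner in the gate Cc2d2a at -0.27, inversin (Invs) at 0.00 and the small GTPase Arl3 at 0.11, which were all under 2-fold. No ciliary kinesin or dynein 2 gene, 16 genes in that list, had an entry, and of cytoplasmic dynein and dynactin Bicd2, a cargo adaptor, had -0.10 beside Dynlrb2.

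Signalling genes of the primary cilium had 8 clusters, of which 2 (25%) were at least 2-fold higher at E15, a share close to the 24.4% of the joined data. Gli3, a Hedgehog transcription factor processed at the cilium, had a value of 1.67 at E15 and -1.51 in adult, a difference of -3.18 and a fold of 9.06. Pdgfra, a growth factor receptor that is also a marker of mesenchyme, had -1.33. The Hedgehog factor Gli1 had -0.61, the tubby-like protein Tulp1 -0.47 and the adenylyl cyclase Adcy3 -0.25, while Pkd2 had 0.48, Pkd1 0.51 and Evc 0.66. The polycystins and Evc thus lay on the adult side without reaching 2-fold. Among the tubulin-modifying enzymes other than Ttll6, Ttll3 had -0.92, Agbl5 -0.87, Agbl2 -0.48 and Agtpbp1 0.49.

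**Figure D3:**
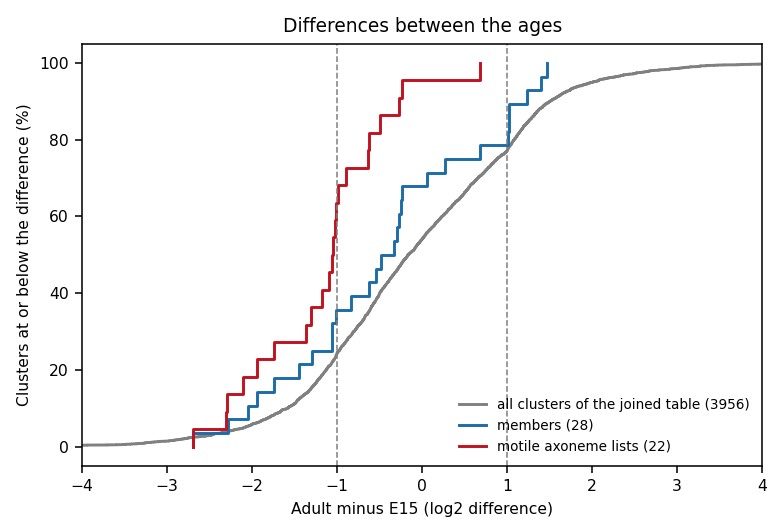
Cumulative share of clusters, in percent, at or below each adult minus E15 difference on the log2 scale, for all 3956 clusters of the joined table in grey, the 28 members in blue and the 22 clusters of the motile axoneme lists in red; dashed lines mark a fold of 2. At -1 the red line has passed 63.6% and the blue line 35.7%, beside 24.4% for the grey line.

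Markers of several cell types also differed between the ages, and their part in the ciliary values was not tested. Their counts stand beside 24.4% of the joined data at least 2-fold higher at E15 and 22.9% in adult. After re-centring these shares were 19.4% and 25.7%. Values centred for each cluster do not show whether a marker was at background. Of the markers of choroid plexus epithelium 9 clusters had an entry, with 6 at least 2-fold higher in adult and 2 at E15, and a median of 2.32; after re-centring there were 7 and 0. Of the 6, Prlr accounts for 2, a cluster of its own and a cluster shared with Agxt2. Of the ependymal markers 7 had an entry, with 4 at least 2-fold higher at E15 and 1, the water channel Aqp4, in adult, and after re-centring 2 and 1. The 4 were Vim and 3 clusters already described above, Foxj1, Dynlrb2 and Cd24a. The median of the ependymal list, -1.01, is therefore not independent of those values. Of its other clusters Vim had a difference of -2.26 and Aqp4 1.25, and those of Rarres2 and Mia1, which carry further symbols, had 0.57 and 0.18.

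Markers of cells without motile cilia also moved with age, and their counts stand beside the same shares of the joined data. All 4 neural progenitor clusters and all 8 of mesenchyme and matrix were at least 2-fold higher at E15, as were 4 of 5 of endothelium and 7 of 8 erythroid clusters, and 3, 6, 3 and 7 of these after re-centring. Neuron markers had 4 of 7 clusters higher in adult and 2 at E15, and macrophage markers had 4 of 7 higher in adult and 1 at E15. Of photoreceptor markers only Rom1 had an entry, with a difference of 1.61. Epithelial, neuron, macrophage and photoreceptor markers were thus the lists with a median on the adult side, as the hair bundle genes had, and their part in the values of Atp2b2, Whrn and Myo7a was not tested.

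A second readout, the splicing index, was available for 25 of the 28 clusters. It is a signed score deposited by the authors that compares exon probe sets with the whole cluster between adult and E15. Its scale is not stated, every entry is at least 0.5 in size by selection, and no exon is named. Among the 25 clusters 18 had a positive and 7 a negative index, beside 1786 positive and 1583 negative in the whole list. Their median size was 1.06, beside 0.90 over the whole list. The largest were 2.17 for the cluster of Fgf2 and Bbs12, which rests on 5 probe sets, 1.91 for the longer Dnahc1 cluster, on 23 probe sets, and 1.68 for Tekt2, on 13. The long heavy chains rest on many more probe sets, with 90 for Dnahc8 and 85 for Dnahc5, and had indices of -1.03 and 1.06.

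The sign of the index ran against the sign of the difference in all 9 listed clusters that were at least 2-fold higher at E15. In the whole list this held for 511 of the 691 clusters higher at E15 (74%), so it was common among clusters with a large difference. Of the 4 listed clusters higher in adult it held for 2, Whrn with an index of -1.04 and Stard10 with -1.09, beside 81.6% of the 594 clusters higher in adult in the whole list, and Myo7a had 0.54. Among the 12 clusters under 2-fold, 4 had opposite signs, beside 53.3% of such clusters in the list. Whether these indices reflect exon use or follow from the difference of the cluster was not tested.

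**Figure D4:**
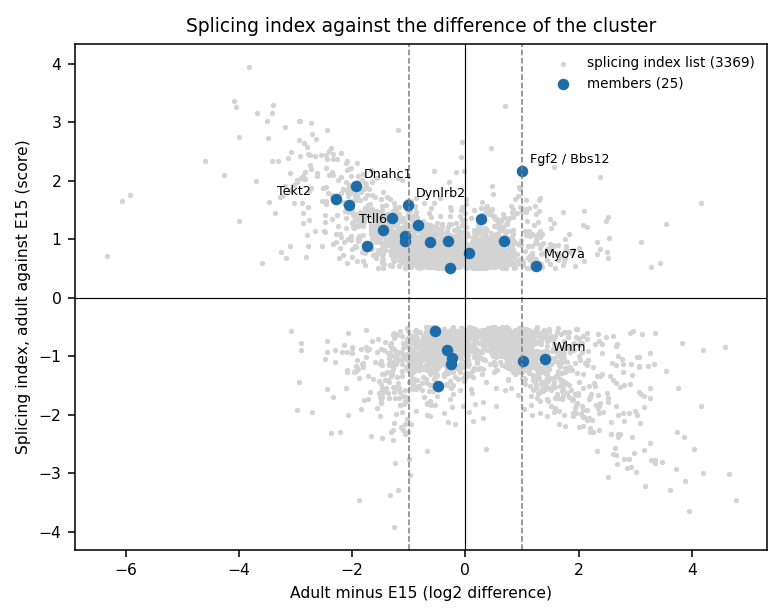
Splicing index, a deposited score with no stated scale, against the adult minus E15 difference on the log2 scale, in grey for the 3369 clusters of the splicing index list and in blue for the 25 members in it; the empty band around 0 is the authors' minimum size of 0.5. All 9 members to the left of the dashed line at -1 have a positive index between 0.89 and 1.91.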

How the data were processed

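RNA from 6 pools of lateral ventricular choroid plexus, 3 for each age, went through 2 rounds of amplification and was hybridised to mouse exon arrays. The authors normalised gene-level data by robust multichip analysis in Affymetrix Power Tools and deposited log2 values, 1 per age. Entries were selected by an unpaired test with Benjamini-Hochberg correction (0.05) and a fold change of 2. The splicing index is a score that the authors derived from exons with PLIER and a splicing analysis of variance. By the supplementary description, its list was limited to clusters with enough probe sets detected above background at both ages. The gene-level data were first filtered by level of expression. Versions and genome build are not given in the sources used here. The deposited columns of fold change and direction, and the table of shared clusters, were not used.

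Both tables were joined on the cluster; the 1218 shared clusters had identical values. Differences, counts and medians were computed with Python 3.11.15 and numpy 2.4.6, after a check on simulated data, and figures with matplotlib 3.10.9. Because 0 columns hold a single array, no test was run (a planned model, the omission of replicates and a replicate block would need them), and the number of arrays limits the precision. List genes were matched as whole symbols or RefSeq names (28 of 28 members matched). Named were all members at least 2-fold apart, listed genes with an entry (2 are not reported here) and the 3 largest splicing indices; the other members were also named, and so were Foxj1, Aqp4, Vim, Rarres2, Mia1, Prlr and Rom1 among markers. The members and lists were chosen with earlier results of these data known. Alternatives were folds of 1.5 and 3, re-centring, other membership rules, single-symbol clusters, the splicing index list alone and the promoter window; those for the gene lists and the paired motif were added after the data had been seen.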

Additional observations from a re-analysis of the deposited data

How the results depend on the processing

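No paired analysis was possible because the value columns hold 1 merged value per age, and for the same reason leaving out each replicate was not run. With a fold of 3, 0 clusters were higher in adult and 5 at E15, and in the motile axoneme lists 6 were higher at E15; with a fold of 1.5 those lists had 1 higher in adult. Re-centring each age on its median in the joined table added 0.15 to every difference: the members' median became -0.25, and 9 clusters of the motile lists were at least 2-fold higher at E15. Dynlrb2, Dnahc5 and Bbs9 then fell below 2-fold, which left 7 members higher at E15 and 6 in adult. The 12 members found by symbol starts had 1 higher in adult and 5 at E15, and the motile clusters that were no members had 9 at E15, both from fewer clusters. In the 250 bases before the start alone, 0% of the members held the RFX element GTTGCCA, beside 4.19% of all promoters. The other 38 summaries moved by at most a factor of 1.5. Counts and shares have no sign to reverse, and the median difference of the members stayed negative in each setting. The transport, BBSome and transition zone lists, whose balance turned on re-centring, were not among these summaries. Of 28 single differences, 7 moved by more on re-centring, each under 0.5 in size. Adding 0.15 could reverse no member, because the negative difference nearest to 0 was -0.24, for Dnahc8. Signal over background cannot be read from centred values. By the supplementary description, clusters of the splicing index list had passed a filter for detection above background at both ages.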
